A study of Rattus norvegicus with 10 samples.

Results

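Transcripts of 9 genes of the circadian clock, Rora, Nr1d1, Nr1d2, Bhlhe40, Bhlhe41, Per1, Per2, Npas2 and Dbp, were described in rat liver. They were measured by every probe set of the Affymetrix rat genome array whose annotated gene symbol equals one of these names. All 9 genes were found, with 13 of the 31042 probe sets tested. Livers came from 10 Harlan Sprague Dawley rats, with 1 array per animal. The 5 control rats received plain NTP-2000 diet for 13 weeks, and the 5 HMB rats received the same diet with 2-hydroxy-4-methoxybenzophenone (HMB, an ultraviolet filter also called oxybenzone) at 10000 ppm. HMB 1 has a title and a chemical label of HMB but a dose label of 0 ppm, and was kept in the HMB group. Rats were housed 5 per cage, so that cage and diet cannot be told apart if each group was 1 cage. Age and sex were not among the labels used here, and no hour of death was either, so the relations given are between transcript levels and not between clock times.

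The clock is a feedback loop that runs in nearly every liver cell. The factors BMAL1 and CLOCK, or NPAS2 in place of CLOCK, bind E-box sequences and switch on Per1, Per2, Nr1d1, Nr1d2, Dbp, Bhlhe40 and Bhlhe41. PER proteins, with CRY proteins, and the repressors BHLHE40 and BHLHE41 then hold BMAL1 and CLOCK back. The nuclear receptors REV-ERB-alpha (Nr1d1) and REV-ERB-beta (Nr1d2) repress Bmal1 and Npas2, while ROR-alpha (Rora) activates them through the same response element. In liver the loop times bile acid, lipid and glucose metabolism, and meals shift its phase.

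The promoters of the members whose levels the results turn on are shown to place these elements beside the data. They are RefSeq sequences of assembly GRCr8, each of 300 bases that end 50 bases after a gene start, and all 9 genes matched by gene identifier. Both strands were searched for the E-box CACGTG, the related element CACGTT and the D-box TTATGTAA or TTACGTAA, which DBP binds. The ROR response element was searched by its usual consensus. Among all 33469 promoters, 6.42% held CACGTG, 4.83% held CACGTT, 0.893% held TTATGTAA, 0.12% held TTACGTAA and 0.356% held the ROR element. Capitals mark matches, which do not overlap one another. Bhlhe40 (chr4:143174200-143174499, plus strand) holds an E-box at -220. Nr1d1 has a pair of promoters on the minus strand, one (chr10:84231763-84232062) with CACGTT read on the opposite strand at -174 and the other (chr10:84229405-84229704) with an E-box at -191. Per2 (chr9:99496944-99497243, minus strand) holds TTATGTAA at -192 and CACGTT at -62. Rora (chr8:78816005-78816304, plus strand) holds none of the motifs searched in this window.
Bhlhe40: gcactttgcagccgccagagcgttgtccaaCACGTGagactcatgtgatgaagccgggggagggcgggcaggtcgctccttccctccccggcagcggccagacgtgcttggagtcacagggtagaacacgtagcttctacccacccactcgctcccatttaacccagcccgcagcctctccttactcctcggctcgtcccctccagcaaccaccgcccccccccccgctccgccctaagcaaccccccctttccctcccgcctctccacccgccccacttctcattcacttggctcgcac
Nr1d1, first promoter: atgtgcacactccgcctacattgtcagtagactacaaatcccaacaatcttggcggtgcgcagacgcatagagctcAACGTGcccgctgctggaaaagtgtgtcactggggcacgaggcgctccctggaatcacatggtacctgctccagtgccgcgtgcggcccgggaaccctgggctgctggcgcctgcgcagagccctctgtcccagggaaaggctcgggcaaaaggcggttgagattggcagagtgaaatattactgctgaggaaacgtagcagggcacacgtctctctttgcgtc
Nr1d1, second promoter: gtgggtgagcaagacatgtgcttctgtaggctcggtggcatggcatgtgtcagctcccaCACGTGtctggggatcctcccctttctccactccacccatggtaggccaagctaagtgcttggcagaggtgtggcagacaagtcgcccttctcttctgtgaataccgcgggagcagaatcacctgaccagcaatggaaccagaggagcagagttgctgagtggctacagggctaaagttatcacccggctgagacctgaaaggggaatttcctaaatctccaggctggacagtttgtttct
Per2: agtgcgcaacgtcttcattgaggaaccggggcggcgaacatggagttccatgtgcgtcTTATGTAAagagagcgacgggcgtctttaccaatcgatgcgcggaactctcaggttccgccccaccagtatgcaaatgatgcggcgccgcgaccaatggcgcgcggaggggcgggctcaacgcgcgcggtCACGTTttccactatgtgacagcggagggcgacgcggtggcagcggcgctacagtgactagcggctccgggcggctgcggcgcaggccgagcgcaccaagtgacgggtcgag
Rora: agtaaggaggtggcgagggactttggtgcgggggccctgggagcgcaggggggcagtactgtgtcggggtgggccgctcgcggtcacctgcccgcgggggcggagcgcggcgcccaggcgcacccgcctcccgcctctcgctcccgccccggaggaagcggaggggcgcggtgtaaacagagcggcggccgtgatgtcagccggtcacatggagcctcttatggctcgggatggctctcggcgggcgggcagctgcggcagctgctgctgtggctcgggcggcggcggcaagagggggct
Bhlhe41 also held an E-box, at -48. No match was found in the windows of Nr1d2, Per1, Npas2 and Dbp.

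The comparison asked which of these transcripts differed in liver after 13 weeks of HMB. The brighter of the Rora probe sets was lower in all 5 HMB rats than in any control, while the dimmer one overlapped between groups with a log2 difference of 0.22. Bhlhe40, a repressor of the loop, had the largest difference of the 13 probe sets, a log2 difference of -1.64, but with a wide spread and no call. The REV-ERB genes, Per1, Npas2 and Dbp did not pass. Of the 13 probe sets 1 fell and none rose (limma, Benjamini-Hochberg adjusted p under 0.05 over all probe sets), where 1.70% of all 31042 probe sets were called, 0.995% lower and 0.705% higher. The limma adjusted p of the 13 ran from 0.0309 to 0.967, and 4 had an unadjusted p under 0.05, a level that 24.1% of all probe sets reached. The median log2 difference of the 13 was -0.063, against 0.012 over all probe sets. In whole liver, fewer cells of a type and less RNA per cell cannot be told apart.

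**Figure D1:**
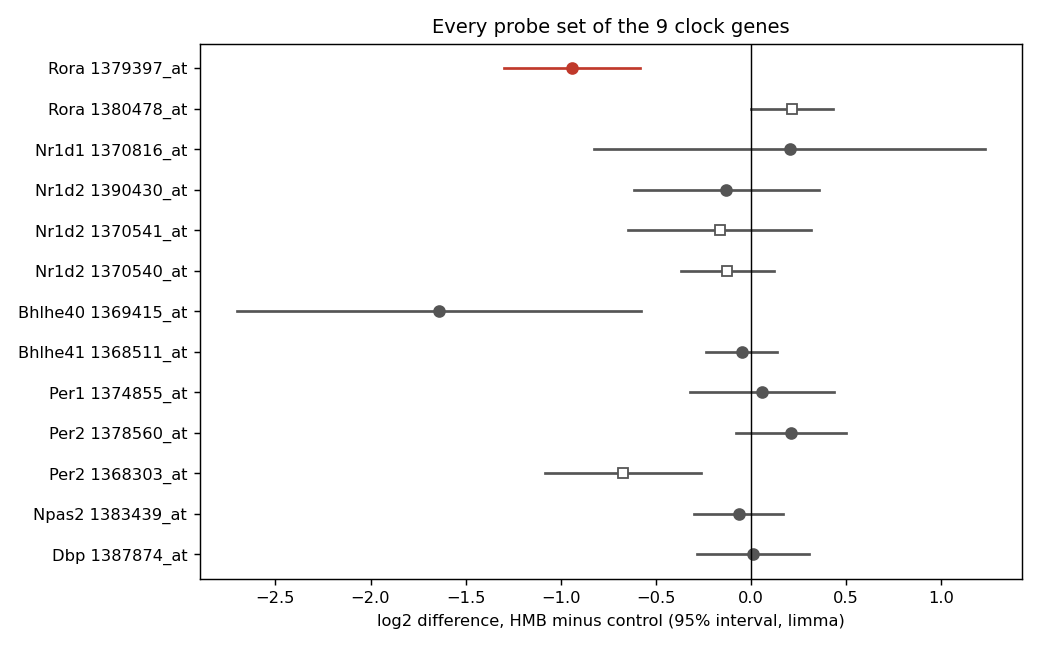
Log2 difference between HMB and control rats (x axis, log2 units) for all 13 probe sets of the 9 clock genes. Points show limma estimates and lines 95% intervals (n = 5 per group), with circles for the brightest probe set of a gene, open squares for the others and red for the called one. Only the interval of the brighter Rora probe set, from -1.30 to -0.58, belongs to a call. Those of Bhlhe40 and of the second Per2 probe set also lie below 0, and that of the dimmer Rora probe set lies just above 0, without passing adjustment.

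The samples were of liver throughout. Albumin, Alb, the main secreted protein of hepatocytes, was near the top of the scale on every array, with group means of 14.61 and 14.57. Over 8 hepatocyte marker probe sets the mean log2 signal ran from 12.77 to 12.89 in controls and from 12.63 to 12.83 in HMB. HMB 3, 4 and 5 lay below all controls, at 12.63, 12.68 and 12.76. Of the 8 log2 differences 7 were below 0, with none called. Markers of bile duct, macrophages, endothelium, stellate cells, lymphocytes and red cells had 0 of 27 probe sets called by limma, with 6 at an unadjusted p under 0.05. Single animals differed more. The macrophage mean ran from 6.68 in control 5 to 8.54 in control 4, and from 7.41 to 8.10 in HMB. That of endothelium ran from 6.84 to 7.99 in the same controls, and from 7.02 to 7.66 in HMB. The control SD of Cd68, a macrophage marker, ranked 88 of 31042 probe sets. The red cell markers had all 4 probe sets above 0, and their mean ran from 4.91 to 5.34 in controls and from 5.22 to 5.63 in HMB. HMB 3, 4 and 5 lay above all controls here, at 5.63, 5.54 and 5.55. The part of any of these cell types in the results on the clock genes, or in their relations across animals, was not tested. The poly-A control signal, of transcripts added to the RNA before labelling, lay between -2.19 and -1.90 log2 units relative to the hybridisation controls in control rats. It was -1.92, -1.96, -1.54, -1.78 and -1.47 in HMB 1 to 5. The 3' minus 5' signal of GAPDH was likewise high in HMB 3, 4 and 5, at 1.97, 2.09 and 1.90 against at most 1.77 in controls. That of beta-actin was 3.616, 3.963 and 3.576 in these arrays, against 3.255 to 3.641 in controls, so only HMB 4 lay above the controls. The counts of calls and the differences of some members, Rora and Bhlhe40 among them, are also given without these 3 arrays.

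Among the receptors that act on the ROR element, Rora, the activator, had in its brighter probe set, 1379397_at, log2 signals of 7.08, 7.02, 7.01, 6.89 and 6.95 in controls 1 to 5. In HMB 1 to 5 they were 6.56, 6.39, 5.49, 5.95 and 5.87. The groups did not overlap, which held for 5.77% of all probe sets, 2.93% with HMB lower and 2.84% with HMB higher. This probe set fell by 0.94 ± 0.16 SE in log2 units (adjusted p = 0.0309 by limma, n = 5 and 5), from 6.99 ± 0.07 (SD, n = 5) to 6.05 ± 0.43, or 1.92-fold. The controls lay within a 1.14-fold range and the HMB rats within a 2.09-fold range. The control SD was higher than that of 9.45% of probe sets, and the HMB SD higher than that of 97.5%.

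The HMB rats with the lowest Rora, HMB 3, 4 and 5, are those with the high poly-A and GAPDH measures. Without them the Rora log2 difference was -0.52 (limma adjusted p = 0.260), and without HMB 1 and 2 it was -1.22 (adjusted p = 0.00707). With the poly-A measure as a covariate it was -0.52 (adjusted p = 0.279), and with the GAPDH measure -0.83 (adjusted p = 0.0385). These were among 23 alternatives, over which the adjusted p ran from 0.00707 to 0.279. In each fit without 1 animal the difference stayed between -1.07 and -0.80, but leaving out any 1 of controls 2 to 5, HMB 4 or HMB 5 ended the call (adjusted p from 0.0568 to 0.0823 in these fits). The unadjusted limma p of Rora was 0.00016 to 0.00031 in these fits, where 0 or 1 of all probe sets were called. Without control 1 its unadjusted limma p was 0.00029 and the call held, among 1653 called probe sets. The adjustment is over all probe sets, so the call also depends on the others. Counting HMB 1 as a control gave -0.99 (adjusted p = 0.0285).

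A second, dimmer Rora probe set, 1380478_at, did not follow the first. Its log2 signals were 4.11, 3.77, 3.73, 3.95 and 3.94 in controls and 4.10, 3.99, 4.15, 4.37 and 3.99 in HMB. The groups overlapped, with a log2 difference of 0.22 ± 0.10 SE (adjusted p = 0.203 by limma, n = 5 and 5). The signal of the bright probe set minus that of the dim one averaged 3.09 ± 0.16 (SD, n = 5) among controls against 1.93 ± 0.49 for HMB. That difference was smaller in every HMB rat than in any control, a description that follows from the values of both probe sets and is given with no test. Which transcripts each probe set detects was not tested.

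Nr1d1, the repressor on that element, had log2 signals of 4.43, 5.70, 5.95, 4.50 and 5.94 in controls. In HMB they were 5.33, 5.72, 3.74, 6.61 and 6.14. Controls 1 and 4 and HMB 3 were low, and the other 7 animals lay above 5.3. The log2 difference was 0.20 ± 0.48 SE (adjusted p = 0.818 by limma, n = 5 and 5), with a 95% interval from -0.82 to 1.23 that leaves room for a change of more than 2-fold upward. Animals of 1 group differed far more than the group means did, over a 2.87-fold range in controls and a 7.30-fold range in HMB. Its SD ranked 76 of 31042 probe sets in controls and 26 in HMB.

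Nr1d2, the companion repressor, shared part of that order on a smaller scale. Its brightest probe set read 7.02, 7.83, 7.73, 7.21 and 7.77 in controls and 7.15, 7.90, 6.82, 7.90 and 7.15 in HMB. Again controls 1 and 4 and HMB 3 were low, joined by HMB 1 and by HMB 5, which was high for Nr1d1. The log2 difference was -0.13 ± 0.23 SE (adjusted p = 0.753 by limma, n = 5 and 5). A second Nr1d2 probe set had a difference of -0.16 (adjusted p = 0.677) and followed the first, with a group-centred r of 0.91 over the 10 arrays (exact permutation p = 0.000139, adjusted p = 0.000556 over 4 pairs of probe sets). Over all 10 arrays r was 0.91 (permutation p = 0.00016, adjusted p = 0.00064) and rho 0.93 (permutation p = 0.0004, adjusted p = 0.0016), and without control 1 and HMB 3 r was 0.83. Another lay at the bottom of the scale, brighter than 7.33% of all probe sets, with group means of 2.39 and 2.27.

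**Figure D2:**
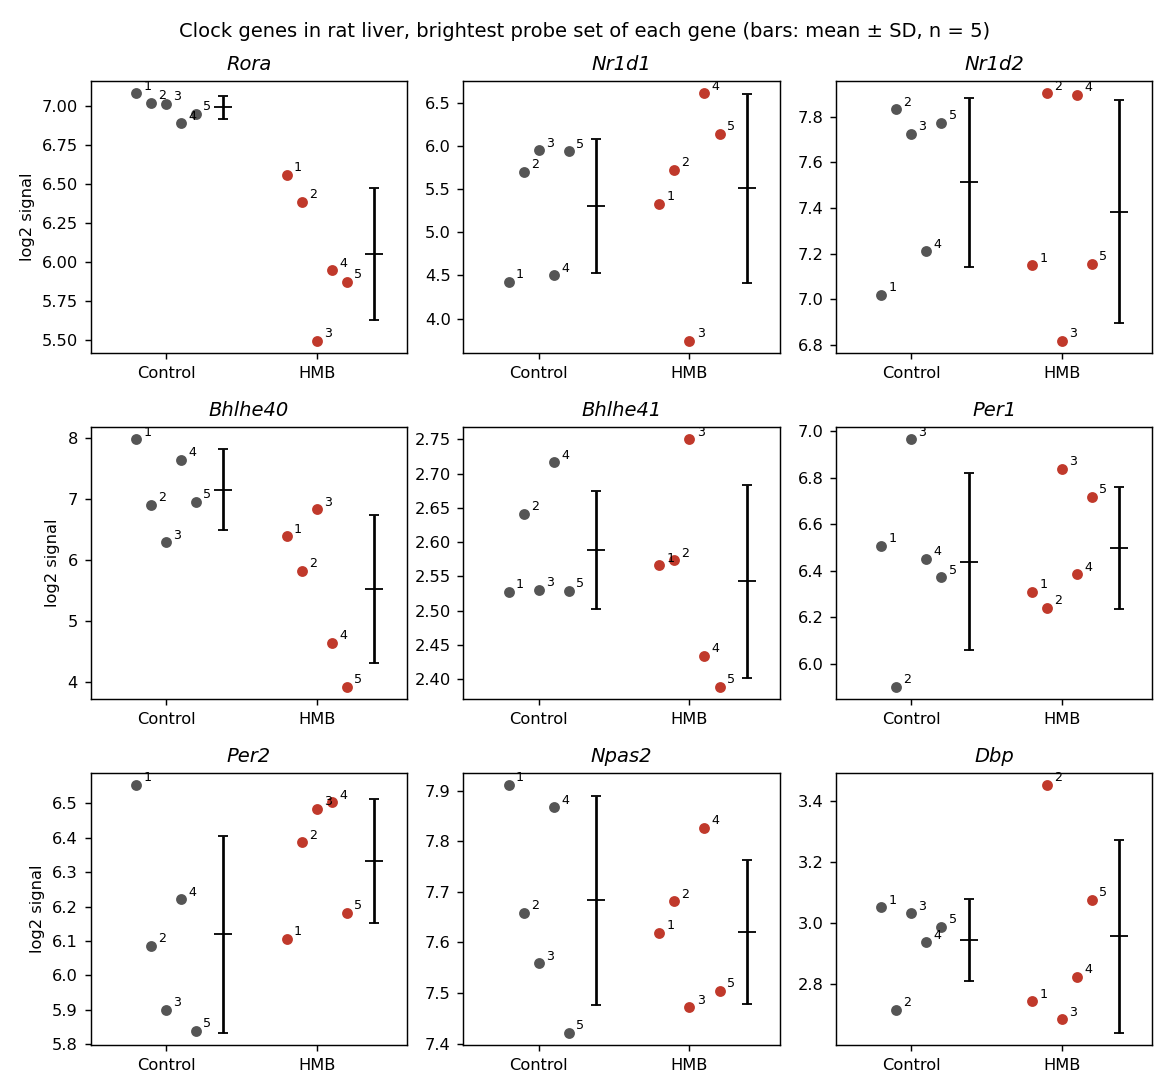
Log2 signal (y axis, a separate scale in each panel) of the brightest probe set of each clock gene in 5 control (grey) and 5 HMB (red) rats, numbered by animal. Bars show the mean ± SD. The groups are apart for Rora alone, while Nr1d1 and Bhlhe40 spread over 2.87 and 2.91 log2 units within the HMB group.

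Of the repressors with a basic helix-loop-helix, Bhlhe40, which hypoxia and feeding also induce, had log2 signals of 7.99, 6.91, 6.29, 7.65 and 6.95 in controls. In HMB they were 6.39, 5.82, 6.83, 4.64 and 3.92. HMB 2, 4 and 5 lay below all controls, while HMB 1 and 3 lay within their range. The log2 difference was -1.64 ± 0.49 SE (n = 5 and 5, 95% interval from -2.70 to -0.58), an estimate of 3.11-fold from 7.16 ± 0.67 (SD, n = 5) to 5.52 ± 1.22. It did not pass (limma adjusted p = 0.0882), nor in any of the 22 alternatives (adjusted p from 0.0554 to 0.59). With the poly-A measure as a covariate the difference was -0.92, and without HMB 3 to 5 it was -1.05. Its SD within the HMB group ranked 12 of 31042 probe sets, and 138 in controls. Bhlhe41, the close relative of Bhlhe40, was brighter than 14.0% of all probe sets on average, with 2.59 ± 0.09 in controls and 2.54 ± 0.14 in HMB. All 10 of its values lay between 2.39 and 2.75, near the bottom of the scale.

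The period genes encode the inhibitors that close the loop. Per1, which glucocorticoids also induce, read 6.51, 5.90, 6.97, 6.45 and 6.37 in controls and 6.31, 6.24, 6.84, 6.38 and 6.72 in HMB. The groups overlapped, with a log2 difference of 0.06 ± 0.17 SE (adjusted p = 0.858 by limma, n = 5 and 5). The brighter Per2 probe set, 1378560_at, read 6.55, 6.09, 5.90, 6.22 and 5.84 in controls and 6.11, 6.39, 6.48, 6.50 and 6.18 in HMB, with a difference of 0.21 ± 0.13 (adjusted p = 0.346). All HMB values lay within the range of the controls.

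The other Per2 probe set, 1368303_at, gave the opposite sign. It read 6.95, 6.18, 6.38, 6.30 and 6.08 in controls and 5.33, 6.05, 6.10, 5.73 and 5.31 in HMB, with 4 of 5 HMB rats below all controls. The log2 difference was -0.67 ± 0.19 SE (adjusted p = 0.0759 by limma, n = 5 and 5), without a call. Within groups both probe sets followed each other, with a group-centred r of 0.81 over the 10 arrays (exact permutation p = 0.00993, adjusted p = 0.0199 over 4 pairs of probe sets), and 0.65 without controls 1 and 5. Over all 10 arrays their r was 0.18 (permutation p = 0.618, adjusted p = 0.618) and rho 0.07 (permutation p = 0.864, adjusted p = 0.864), and r was -0.12 without controls 1 and 5. The signal of 1378560_at minus that of 1368303_at was -0.40, -0.09, -0.48, -0.08 and -0.25 in controls and 0.78, 0.34, 0.38, 0.77 and 0.87 in HMB. The groups did not overlap in this measure. It was chosen after the values were seen, so it is a description and no test result is given for it. Neither Per2 probe set passed.

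Npas2, the partner of BMAL1, is one of the genes that REV-ERB proteins repress. It read 7.91, 7.66, 7.56, 7.87 and 7.42 in controls and 7.62, 7.68, 7.47, 7.83 and 7.50 in HMB, a log2 difference of -0.06 ± 0.11 SE (adjusted p = 0.749 by limma, n = 5 and 5). Its sign turned after cyclic loess, at 0.055. Dbp, the D-box factor whose transcript is known for a very large daily range in liver, stayed between 2.69 and 3.45 on all 10 arrays. Its probe set was brighter than 24.7% of all, and the group means were 2.95 ± 0.14 (SD, n = 5) and 2.96 ± 0.31. The Dbp sign turned after cyclic loess too, at -0.090, and its adjusted p was 0.967.

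Levels of the members were then compared across animals, as 36 pairs of genes with 1 probe set each. Values were centred on the group mean, so that the difference between diets does not enter, and tested over all 14400 shuffles within groups. No pair passed after adjustment over the 36 (exact permutation, smallest adjusted p = 0.131), and 5 had an unadjusted p under 0.05. Of the 36 centred correlations 16 were above 0 and 20 below.

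Nr1d1 and Bhlhe40 had the lowest of these, a centred r of -0.85 (n = 10 arrays, exact permutation p = 0.00535, adjusted p = 0.131). Without the extremes, control 1 and HMB 3, it was -0.75. Uncentred, r was -0.70 (permutation p = 0.0266, adjusted p = 0.239), rho -0.72 (permutation p = 0.023, adjusted p = 0.486), and r was -0.74 without control 1 and HMB 3. Controls 1 and 4, lowest for Nr1d1 in their group at 4.43 and 4.50, were its highest for Bhlhe40 at 7.99 and 7.65. HMB 3, lowest of all animals for Nr1d1 at 3.74, had the highest Bhlhe40 of its group at 6.83, which is lower than in 4 of the 5 controls. HMB 4 and 5, highest for Nr1d1 at 6.61 and 6.14, had the lowest Bhlhe40, 4.64 and 3.92. Leaving out each animal in turn gave centred r from -0.92 to -0.80.

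Nr1d1 and Nr1d2 had the highest, a centred r of 0.81 (n = 10 arrays, exact permutation p = 0.00729, adjusted p = 0.131), or 0.645 without control 1 and HMB 3. Uncentred, r was 0.78 (permutation p = 0.00822, adjusted p = 0.170), rho 0.64 (permutation p = 0.0545, adjusted p = 0.486), and r was 0.53 without the same animals. The other pairs with an unadjusted p under 0.05 were Nr1d1 with Bhlhe41 (centred r -0.77), Bhlhe40 with Bhlhe41 (0.77) and Per2 with Npas2 (0.75), each with an exact permutation adjusted p of 0.216. For Bhlhe41 the relation lay within the narrow range of its dim probe set. Per2 with Npas2 had a centred r of 0.54 without controls 1 and 5.

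**Figure D3:**
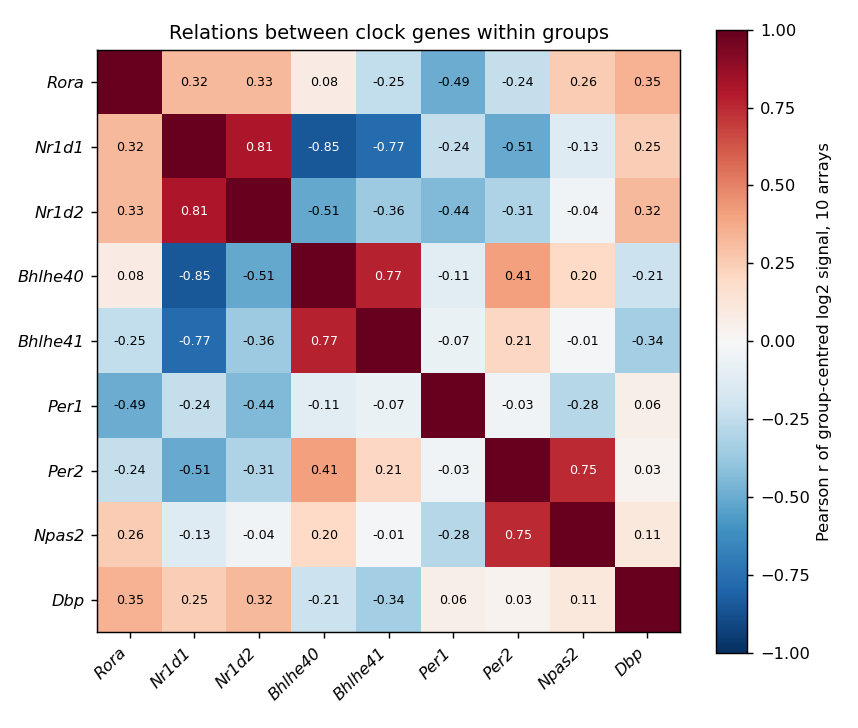
Pearson r between the brightest probe sets of each pair of clock genes over 10 arrays, after each value was centred on its group mean (colour and number, from -1 to 1). The strongest cells join Nr1d1 with Nr1d2 (0.81) and set Nr1d1 against Bhlhe40 (-0.85). None of the 36 passed adjustment.

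No pair with Rora passed. Its centred r was 0.32 with Nr1d1, 0.33 with Nr1d2, 0.08 with Bhlhe40, 0.26 with Npas2 and -0.49 with Per1, with exact permutation adjusted p from 0.521 to 0.964 for these 5 over the 36 pairs. Without HMB 1 and HMB 3, the arrays farthest from the median for Rora, they were -0.27, 0.34, 0.66, 0.13 and -0.31 in the same order, and r with Dbp was 0.70 where it had been 0.35. No uncentred r is given for Rora, since its groups do not overlap. Dbp had centred r between -0.34 and 0.35 with the other 8 members.

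Npas2, a target of REV-ERB repression, showed no single order against Nr1d1. In controls the animals lowest for Nr1d1, controls 1 and 4, were highest for Npas2, at 7.91 and 7.87. In HMB the animal lowest for Nr1d1, HMB 3, was also lowest for Npas2, at 7.47, and the animal highest for Nr1d1, HMB 4, was highest for Npas2, at 7.83, but HMB 5, second highest for Nr1d1, was second lowest for Npas2, at 7.50. The centred r over both groups was -0.13 (n = 10 arrays, exact permutation p = 0.71, adjusted p = 0.943). Whether the relation differs between the groups was not tested, and 5 animals a group are too few for a correlation within each.

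**Figure D4:**
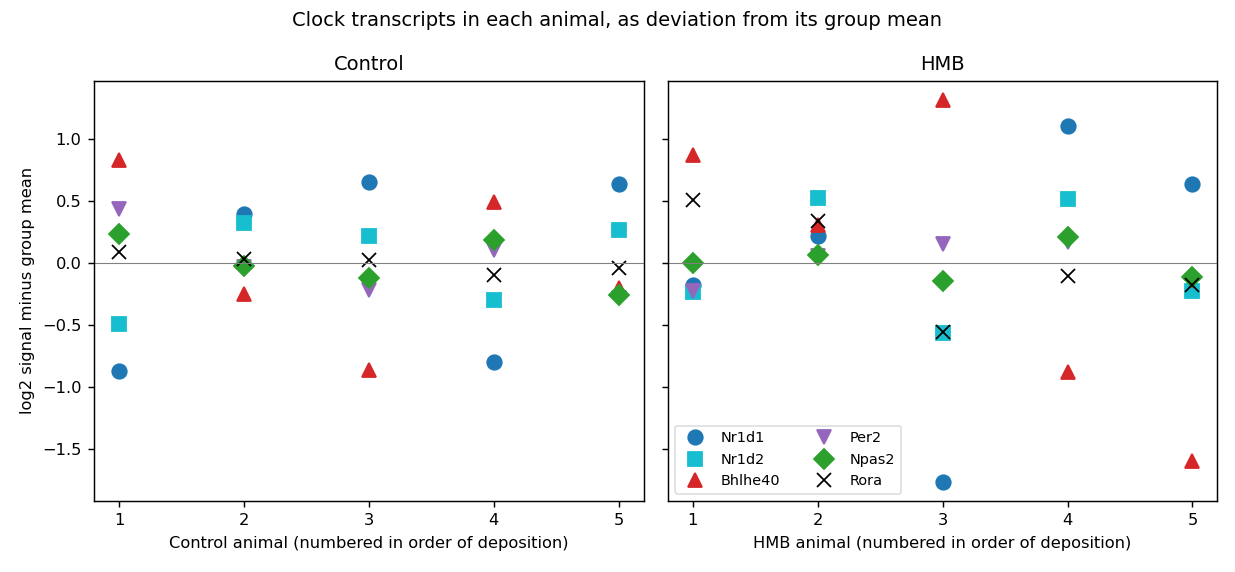
Log2 signal minus the group mean (y axis, log2 units) of 6 clock transcripts in each control (left) and HMB (right) animal, numbered in order of deposition. Bhlhe40 (triangles) and Nr1d1 (circles) lie on opposite sides of the group mean in every animal except HMB 2. Their correlation did not pass adjustment. Rora (crosses) hardly moves among controls, which lie within a 1.14-fold range.

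The rest of the loop showed no called change. A list of 20 other clock genes had 35 probe sets for 16 of them, of which limma called 0, with 7 at an unadjusted p under 0.05, 3 higher and 4 lower, a level that 24.1% of all probe sets reached. Their median log2 difference was -0.006, against 0.012 over all probe sets. Groups did not overlap for 1 probe set with HMB higher and 2 with HMB lower, where this held for 5.77% of all probe sets. Bmal1, the target that REV-ERB and ROR proteins share, read 6.28, 6.71, 6.36, 6.35 and 6.45 in controls and 6.57, 6.47, 6.002, 5.91 and 6.09 in HMB. HMB 3, 4 and 5, the arrays with the high poly-A and GAPDH measures, lay below all controls and HMB 1 and 2 within their range. The log2 difference was -0.22 ± 0.13 SE (adjusted p = 0.319 by limma, n = 5 and 5). The part of those measures in it was not tested.

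Clock, the partner of BMAL1, was lower in every HMB rat than in any control in its brightest probe set, a log2 difference of -0.20 ± 0.07 SE (adjusted p = 0.138 by limma, n = 5 and 5), without a call. A second Clock probe set had a log2 difference of -0.29 (adjusted p = 0.105), another -0.20 (adjusted p = 0.358) and the dimmest 0.17 (adjusted p = 0.216). Cry1, the partner of the PER proteins, differed by -0.32 ± 0.13 (adjusted p = 0.164). The smallest p in the list was that of a dim Per3 probe set, with all HMB rats above all controls and a difference of 0.34 ± 0.08 (adjusted p = 0.0523), while the other Per3 probe set had -0.11. Without control 1 a probe set each of Clock, Cry2 and Per3 passed, and without HMB 1 that of Per3 alone. The D-box factors Tef and Hlf had brightest probe sets at 0.13 and -0.14, and Nfil3, which represses through the same element, at -0.0063. Ciart had no probe set here.

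Dbp was chosen as the reference for relations of 9 other clock genes, and none passed (group-centred r from -0.23 to 0.54, n = 10 arrays, exact permutation adjusted p = 0.992 for all). Because the Dbp probe set lay near the bottom of the scale, Nr1d1 took its place after the data were seen. No gene passed against Nr1d1 either. Cry1 had the lowest p, with a centred r of -0.84 (exact permutation p = 0.00972, adjusted p = 0.0875 over 9 genes) and -0.46 without control 1 and HMB 3. Uncentred, r was -0.73 (permutation p = 0.0157, adjusted p = 0.141), rho -0.72 (permutation p = 0.0234, adjusted p = 0.211), and r was -0.56 without control 1 and HMB 4. Bmal1 had a centred r of 0.13 with Nr1d1 (exact permutation adjusted p = 0.807).

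Genes known to cycle in liver downstream of the clock, feeding or glucocorticoids had 34 probe sets for 25 of 29 listed, of which limma called 0. At an unadjusted p under 0.05 there were 7, all lower, where 24.1% of all probe sets reached that level, 3960 higher and 3534 lower. The median log2 difference was -0.105, against 0.012 over all probe sets. Groups did not overlap for 2 of the 34 probe sets, both lower, where this held for 5.77% of all probe sets. Sgk1, a kinase gene, lay lower in every HMB rat than in any control, a log2 difference of -1.28 ± 0.32 SE (adjusted p = 0.0587 by limma, n = 5 and 5) from 9.08 ± 0.83 (SD, n = 5). The gap was narrow, with HMB 3 at 8.31 and control 1 at 8.33, and control 4 was highest at 10.39. The Sgk1 control SD ranked 53 of 31042 probe sets. Nampt, the rate-limiting enzyme of NAD salvage and an E-box target, had values of 9.40, 9.56, 9.72, 9.14 and 9.55 in controls and 9.15, 8.31, 9.09, 7.68 and 7.28 in HMB. HMB 4 and 5 were lowest for Nampt, as they were for Bhlhe40, and the difference was -1.17 ± 0.31 (adjusted p = 0.0669). Tspan4, a tetraspanin, differed by -0.34 ± 0.10 (adjusted p = 0.0759) without overlap. Glucocorticoids induce Sgk1, Fkbp5, Tsc22d3 and Mt1. The brightest probe sets of the last 3 had differences of 0.23, 0.18 and 0.64 (limma adjusted p = 0.594, 0.467 and 0.301). The other Fkbp5 probe set had -0.012 (limma adjusted p = 0.969). Fkbp5, Tsc22d3 and Mt1 were named after their values were seen, and a part of glucocorticoids in any of these levels was not tested.

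The call for Rora and the value for Bhlhe40 are drawn under every setting. In the fits on all 10 arrays without a covariate the Rora call was lost after quantile normalization, where the difference was -0.81 (limma adjusted p = 0.0549).

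**Figure D5:**
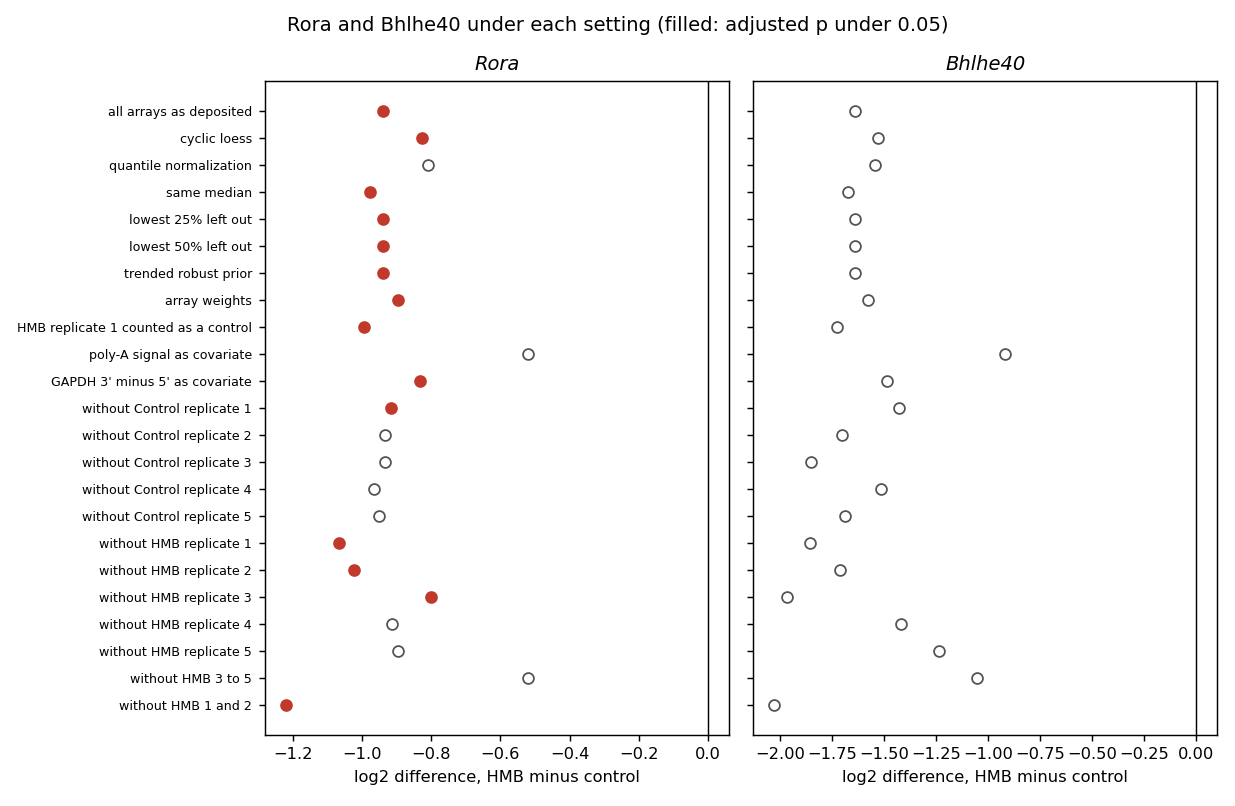
Log2 difference, HMB minus control (x axis), of the brightest Rora (left) and Bhlhe40 (right) probe sets under each processing setting (y axis). Filled circles have an adjusted p under 0.05. All points lie below 0, Rora between -1.22 and -0.52 and Bhlhe40 between -2.03 and -0.92, and no Bhlhe40 point is filled.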

How the data were processed

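The deposited table holds log2 signals of 31099 probe sets on Affymetrix arrays (biotin label), made with RMA per the submitters' processing notes, whose version is not given in the sources used here. RMA adjusts background, normalizes between arrays and summarises probes to 1 log2 value. The values were used as deposited, and 57 probe sets of Affymetrix controls did not enter the tests. No detection calls were used, so a dim value cannot be told from absence. The number of arrays limits the precision, and the calls also moved with normalization, covariates and single animals, as given below. None of the 45 array pairs held identical values, and their correlations across probe sets ran from 0.987 to 0.995.

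The members and gene lists were chosen with earlier results of these data known. Groups came from the titles. Gene names are those of GEO's platform annotation, updated by gene ID to RefSeq symbols, with 1 symbol for 20826 probe sets, several for 436 and none for 9780. The brightest probe set over all 10 arrays stood for a gene in correlations and alternatives. Tests used limma 3.58.1 (lmFit and eBayes) in R 4.3.3 on 31042 probe sets, with Benjamini-Hochberg adjustment over all of them, a threshold of 0.05, and 8 residual and 4.93 prior degrees of freedom. Animals were taken as independent. The fit step was tested on simulated data.

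Correlations were Pearson r and Spearman rho with two-sided permutation p-values (100000 resamples), and Pearson r of group-centred values with exact shuffles within groups. Named were every member, called or lowest-p genes of each list, 8 fixed clock genes, and the 5 genes most like each of Rora, Bhlhe40 and Dbp. Alternatives changed normalization, filters, prior, array weights, covariates, the group of HMB 1, and left out each animal. Fits without HMB 3 to 5 or HMB 1 and 2, and Nr1d1 as a reference, were added after the data were seen. Figures used matplotlib 3.10.9 in Python 3.11.15.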

Additional observations from a re-analysis of the deposited data

How the results depend on the processing

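No paired analysis was possible because the replicate numbers follow the order of deposition and pair no animals. The median of all log2 differences moved by less than 0.1 between scalings, from -0.025 to 0.012. The spread of signals was smallest in HMB 3, 4 and 5, the arrays with the high poly-A and GAPDH measures. The SD of log2 signals over all probe sets of an array ran from 2.434 to 2.495 in controls and from 2.377 to 2.431 in HMB. It was 2.431 and 2.426 in HMB 1 and 2, near the 2.434 of control 1, and 2.377, 2.385 and 2.382 in HMB 3, 4 and 5. Its part in the differences of bright and dim probe sets was not tested. The number of probe sets changed by HMB, 528 as deposited, was 125 after cyclic loess, 106 after quantile normalization, 925 with array weights, 257 with the GAPDH covariate, 0 with the poly-A covariate (3806 at an unadjusted limma p under 0.05), 0 without HMB 3 to 5 (3276), 2094 without HMB 1 and 2, and 2432 at an adjusted p under 0.1. It ran from 0 to 1653 with 1 animal left out. It was 1653 without control 1, 997 without HMB 1, 65 without HMB 2, 243 without HMB 3, and 1 without control 3 or HMB 5. It was 0 when any 1 of controls 2, 4 and 5 or HMB 4 was dropped, with 5928 to 6558 at an unadjusted limma p under 0.05. Of the members 0 were called after quantile normalization (4 at an unadjusted limma p under 0.05), with the poly-A covariate (1) and without HMB 3 to 5 (3). At an adjusted p under 0.1 the 3 called were Rora, Bhlhe40 and the second Per2 probe set, all lower, and leaving out 1 animal gave 0 to 1, with 3 or 4 at an unadjusted limma p under 0.05 where 0 were called. For other clock probe sets the count was 1 with array weights (Per3), 3 without HMB 1 and 2, 1 at an adjusted p under 0.1, and 0 to 3 with 1 animal left out. For clock output probe sets it was 1 with equal medians (Sgk1), 2 with array weights, 2 with HMB 1 as a control, 3 without HMB 1 and 2, 4 at an adjusted p under 0.1, and 0 to 1 with 1 animal left out (Sgk1 without control 1, Nampt without HMB 1, Tfrc without HMB 3). The Rora log2 difference was -0.81 after quantile normalization, -0.52 with the poly-A covariate, -0.52 without HMB 3 to 5, 0.22 in the second probe set, and -1.07 to -0.80 with 1 animal left out. Uncalled members changed sign in some settings, and the cause was not tested. With the poly-A covariate Nr1d2 had 0.11, Per1 -0.31 and Npas2 0.089. Without HMB 3 to 5 Nr1d2 had 0.013 and Per1 -0.16, and with the GAPDH covariate Per1 had -0.025. Cyclic loess gave Npas2 0.055 and Dbp -0.090, quantile normalization Npas2 0.061 and Dbp -0.096, and equal medians gave Dbp -0.026. Without HMB 1 and 2 Dbp had -0.083. As deposited, with all animals kept, the other Per2 probe set had -0.67, opposite in sign to the brighter one. With 1 animal left out the log2 difference ran from -0.071 to 0.65 for Nr1d1, -0.26 to 0.014 for Nr1d2, -0.075 to 0.19 for Per1 and -0.11 to 0.079 for Dbp. No pair of members passed in any of 12 alternatives (smallest adjusted p = 0.075 by exact permutation, in a fit without 1 animal).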

Other observations

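The 5 genes most like each of 4 members were taken by Pearson r of group-centred values over the 10 arrays, among 12274 single-gene probe sets with a mean above the median (12275 for Dbp). They are the top of a long ranking, so the r values are descriptions with no test. Nearest to Bhlhe40 were Tmem123 (r = 0.96), Fabp1, the fatty acid binding protein of liver (0.955), Sat1, an acetyltransferase of polyamine breakdown (0.93), Wdr82 (0.93) and Chka, a choline kinase (0.92). Of these 5 Wdr82 fell, by 0.54 on the log2 scale (limma adjusted p = 0.042). Nearest to Rora were Maoa, a monoamine oxidase (0.985), Stard3nl (0.984), Mkln1 (0.980), Triap1 (0.97) and Rab2a, a small GTPase (0.968). None of these 5 passed, with log2 differences from -0.24 to -0.02 (limma adjusted p from 0.139 to 0.923). Rora itself lay from -0.10 to 0.09 around its group mean in controls and from -0.56 to 0.51 in HMB. Its centred r values therefore rest mostly on the HMB arrays. There it lay at 0.507 and 0.334 in HMB 1 and 2. In HMB 3, 4 and 5, the arrays with the high poly-A and GAPDH measures, it lay at -0.558, -0.105 and -0.178. The part of those measures in the r values of these neighbours was not tested.

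Nearest to Nr1d1, added after the data were seen, were Rtfdc1 (r = 0.98), C5h1orf50 (0.96), Zfp281 (0.96), Kif16b (0.95) and Gapvd1 (0.94), with none of the 5 called. Nearest to Dbp were Snx9 (0.89), Bdh2 (0.88), Fam114a1 (0.88), Paox (0.875) and H1f4, a linker histone (0.87). No gene of the clock lists was among these 20. Dixon's test found no outlying animal among 26 groups of 5 values, 2 for each of the 13 member probe sets.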
